A study of Liolaemus parthenos with 3 samples.

Results

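L2 transcripts were followed in 3 libraries of total RNA, 1 each from brain, ovary and liver. All came from the same adult individual of Liolaemus parthenos, a parthenogenetic lizard. The animal was collected in the field and received no treatment named in the labels, and the labels give no age beyond adult. The members are all 159 assembled transcripts that the authors' annotation names L2, a clade of long interspersed elements (LINE), among the 480 transcripts of the quantification files (33.1%). The row of the same name in the authors' table of 31 element subfamilies was read beside them. The stated purpose of the series was to try out a pipeline for transposable element expression that needs no reference genome.

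L2 elements are retrotransposons without long terminal repeats. A complete copy codes for an endonuclease and a reverse transcriptase, with which the element copies its own RNA back into the genome. Copying often stops early, so that most genomic copies are short pieces of the element's 3′ end. L2 belongs to the same group of LINEs as CR1. In placental mammals L2 survives as old, inactive copies, whereas the genome of the anole lizard holds young L2 insertions beside CR1, L1 and RTE elements. The files hold names and values without sequence or gene names, so neither the name L2 nor the labelled tissues could be checked against sequence or marker genes.

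The libraries have no replicates, so every interval below is an exact 95% interval that covers only the error of counting reads. Differences hold for these libraries and not for the tissues at large. Column totals of the subfamily table were 5468656 (Brain), 1143616 (Ovary) and 1717904 reads (Liver). File totals were 16405 reads for brain, 4651 for the file attached to the ovary sample and 10644 for the file attached to the liver sample. The names of those last files are crossed against their sample records, so they are called the ovary-recorded and the liver-recorded library here, and comparisons of brain with both hold under either naming. The libraries carry no strand information. RNA started by an L2 element, and RNA of a gene that carries an L2 copy, cannot be told apart in either data set.

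L2 stood in the upper part of the subfamily table by reads. It ranked 6 of 31 subfamilies in the Brain column with 33223 reads, 9 in the Ovary column with 9887 and 8 in the Liver column with 7189. These were 0.608% of the Brain column (0.601 to 0.614), 0.865% of the Ovary column (0.848 to 0.882) and 0.418% of the Liver column (0.409 to 0.428). As SINE3 alone took 91.4%, 77.6% and 84.3% of these columns, the shares were also taken outside SINE3. There L2 held 7.09% in the Brain (7.01 to 7.16), 3.87% in the Ovary (3.79 to 3.94) and 2.66% in the Liver column (2.604 to 2.73). The Brain column was thus 1.42-fold below the Ovary column with SINE3 in the total (1.39 to 1.46) and 1.83-fold above it without (1.79 to 1.87). Against the Liver column it was above in both, by 1.45-fold (1.42 to 1.49) and by 2.66-fold (2.59 to 2.73). With TMM or median-of-ratios factors, which scale columns by the ratios of many subfamilies, that log2 difference of 0.54 shrank to 0.087 or 0.13. The Ovary column was above the Liver column by 2.07-fold (2.004 to 2.13) and without SINE3 by 1.45-fold (1.41 to 1.5), but below it with either of those factors.

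In the quantification files, where SINEs are nearly absent, L2 had the second largest number of transcripts after CR1 and ranked 3 by reads in every library. CR1 had the most reads in all of them, followed by the endogenous retrovirus group ERV3 in brain and in the liver-recorded library and by ERV2 in the ovary-recorded library. The 159 L2 transcripts received 3577 reads in brain, 804 in the ovary-recorded library and 1109 in the liver-recorded library. The shares were 21.8% (21.2 to 22.4), 17.3% (16.2 to 18.4) and 10.4% (9.84 to 11) of the file reads. Brain was 1.26-fold above the ovary-recorded library (1.17 to 1.36) and 2.09-fold above the liver-recorded library (1.96 to 2.24). The ovary-recorded library was 1.66-fold above the liver-recorded library (1.51 to 1.82). By TPM, which divides reads by the usable length of each transcript, the L2 shares were 24.5% in brain, 16.6% in the ovary-recorded library and 14.5% in the liver-recorded library. The order stayed, while the gap between the latter libraries narrowed to a log2 ratio of 0.19, from 0.73 as reads. It was 0.046 with TMM and 0.0035 with median-of-ratios factors. The log2 ratio of brain over the liver-recorded library likewise fell from 1.07 to 0.30 and 0.16 with these factors, so both gaps to the liver-recorded library depended on the scaling.

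Set against its relative CR1, L2 was most prominent in brain in both data sets. Of the reads of L2 and CR1 together, L2 took 34.7% in brain (33.8 to 35.6), 27.5% in the ovary-recorded library (25.9 to 29.1) and 18.8% in the liver-recorded library (17.8 to 19.8). By TPM these shares were 28.8%, 24.0% and 19.5%. In the subfamily table they were 18.8% in the Brain column (18.6 to 19.0), 13.4% in the Ovary column (13.1 to 13.6) and 5.54% in the Liver column (5.41 to 5.66). This proportion within a library needs no scaling between libraries, and none of the intervals overlapped within a data set. CR1 itself took 41.04%, 45.6% and 45.01% of the file reads in brain and in the ovary-recorded and liver-recorded libraries. L1, a more distant LINE, took 2.09%, 0.903% and 0.658% of them. In the subfamily table outside SINE3, CR1 took 30.6% of the Brain, 25.1% of the Ovary and 45.5% of the Liver column. The Liver column was thus highest in CR1 as well as lowest in L2, and both enter its low proportion.

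**Figure D1:**
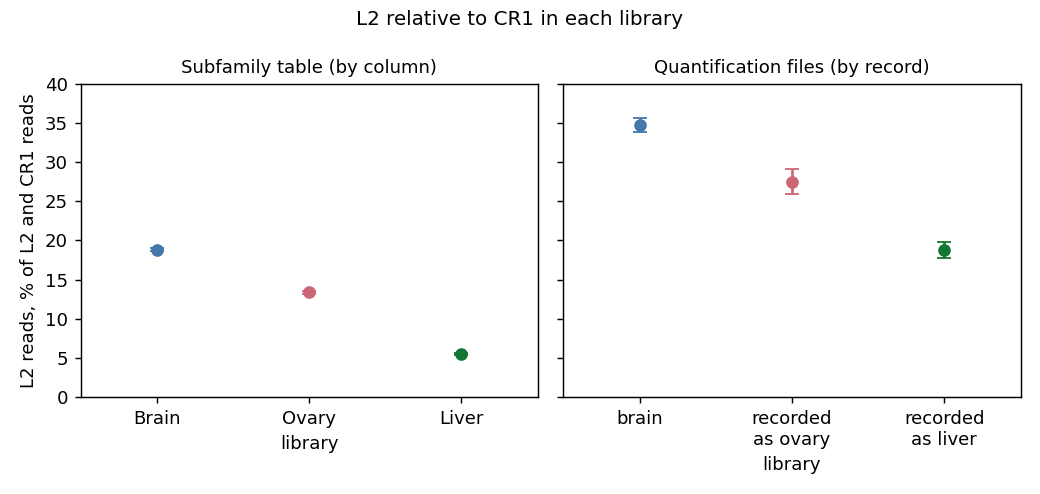
L2 reads as a percentage of L2 and CR1 reads in each library, in the subfamily table by column (left) and in the quantification files by sample record (right); bars are exact 95% intervals of counting error. Brain is highest in both panels, at 18.8% and 34.7%, and the lowest points are the Liver column at 5.54% and the liver-recorded library at 18.8%.

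Most L2 transcripts were short and rare. Their lengths ran from 203 to 4299 bases with a median of 315, against 252 for the 198 CR1 transcripts and 284 for all 480. The median member had 10 reads in the 3 files together, 123 of the 159 had fewer than 20, and 2 had none at all. Those 123 held 20.8% of all L2 reads of the 3 files. At least 1 read was found for 148 members in brain, 85 in the ovary-recorded library and 90 in the liver-recorded library. These were 93.1%, 53.5% and 56.6% of the L2 members, beside 92.7%, 54.6% and 60.0% of all 480 transcripts. Brain was also the deepest file. At an equal depth of 4649 reads, computed by exact rarefaction, 127.9 members would be expected in brain and 66.1 in the liver-recorded library, beside the 85 counted in the ovary-recorded library. CR1 gave 154.3, 90.9 and 111 of 198 at that depth, in the order brain, liver-recorded, ovary-recorded. All 480 transcripts gave 374.6, 226.2 and 262 in that order.

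Detection split by library as follows. Reads appeared in all 3 libraries for 55 members, in brain alone for 40, in the ovary-recorded library alone for 2 and in the liver-recorded library alone for 4. The 40 members found in brain alone held 347 reads between them, at most 28 for a single member. Among all 480 transcripts 24.2% were found in brain alone, and among the L2 members 25.2%, so this share was close to that of the whole files. Found in all 3 libraries were 34.6% of the L2 members, beside 38.8% of all transcripts. For the ovary-recorded library alone these shares were 1.26% and 2.08%, and for the liver-recorded library alone 2.52% and 2.29%.

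Length separated the L2 members into a small set of long transcripts with most of the reads and a large set of short ones. There were 68 members under 300 bases, 61 from 300 to under 500, 22 from 500 to under 1000 and 8 of 1000 bases or more. The 8 longest held 56.2% of L2 reads in brain (54.6 to 57.9), 61.7% in the ovary-recorded library (58.2 to 65.1) and 74.4% in the liver-recorded library (71.7 to 76.9). Per length the picture was inverted. The 68 shortest held 58.5%, 56.0% and 69.3% of the L2 TPM in the same order, and the 8 longest 5.17%, 9.25% and 8.48%. The shortest usable length of a member was 56 bases, so that a few reads on such a transcript weigh heavily in TPM.

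**Figure D2:**
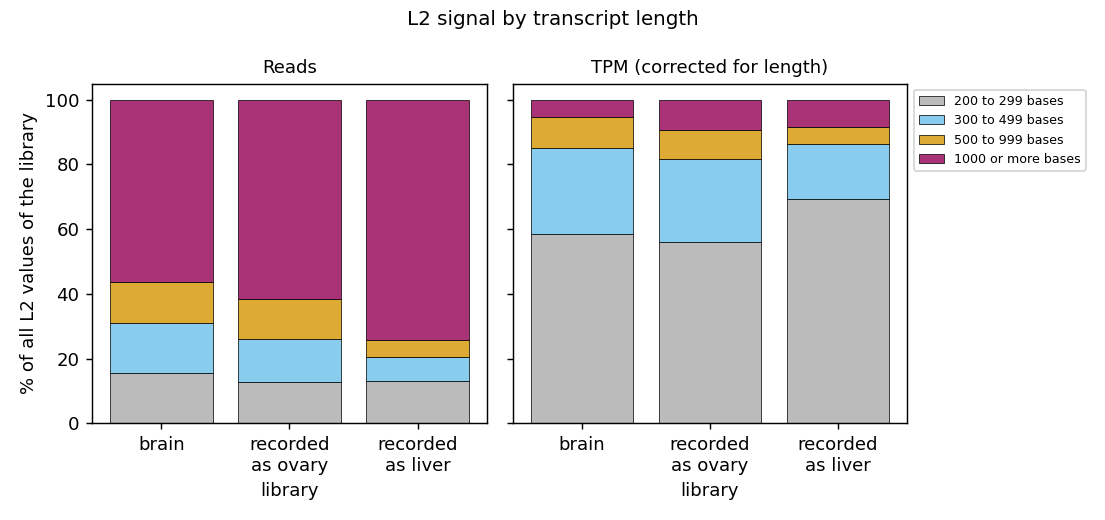
Share of the L2 signal by transcript length in each quantification file, as reads (left) and as TPM (right); the 4 colours are length classes and each bar adds up to the whole of L2 in that library. The longest class takes 56.2% to 74.4% of reads and 5.17% to 9.25% of TPM.

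The lower L2 level in the liver-recorded library was steeper among members under 1000 bases than among the 8 longer ones. Members under 1000 bases took 9.54% of the file reads in brain, 6.62% in the ovary-recorded library and 2.67% in the liver-recorded library. Brain was thus 3.57-fold above the liver-recorded library (3.15 to 4.07) for these, against 1.58-fold (1.46 to 1.72) for members of 1000 bases or more. Short CR1 transcripts were lower there too, at 11.6% against 21.7% in brain. Long CR1 transcripts went the other way, at 33.4% in the liver-recorded library against 19.3% in brain, while long L2 members were at 12.3% in brain and 7.75% there. The long CR1 values rest on only 10 transcripts, of which 9 had reads in brain and 7 in the liver-recorded library.

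Among the long members, 7 exceeded 3000 bases and the next was 1162 bases long, a gap that was noticed after the lengths were seen. Those 7 transcripts came from only 2 assembled components, a component being the name without its final isoform number. They held 2005 reads in brain, 401 in the ovary-recorded library and 825 in the liver-recorded library, or 12.2%, 8.63% and 7.75% of the file reads. Between the latter libraries the ratio was 1.11 (0.985 to 1.25), so the counts gave no direction. The other 152 members took 9.58%, 8.66% and 2.67%.

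The component TRINITY_DN79_c0_g1 was the main source of L2 reads in every library. It has 6 members of 3129 to 4299 bases, of 11 transcripts under that name in the annotation. They summed to 1608 reads in brain, 295 in the ovary-recorded library and 722 in the liver-recorded library. These sums were 44.9%, 36.6% and 65.1% of all L2 reads and 9.80% (9.35 to 10.3), 6.33% (5.66 to 7.08) and 6.78% (6.31 to 7.28) of the file reads. Brain was 1.55-fold above the ovary-recorded library (1.36 to 1.76) and 1.44-fold above the liver-recorded library (1.32 to 1.58), under 2-fold in both cases.

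The transcripts of that component divided its reads differently from library to library. TRINITY_DN79_c0_g1_i8 (4159 bases), the member with most reads in brain, had 435 reads there, 102 in the ovary-recorded library and 282 in the liver-recorded library. It took 27.1%, 34.7% and 39.0% of the component. TRINITY_DN79_c0_g1_i21 (4144 bases) had 284 reads in brain, 0 in the ovary-recorded library and 232 in the liver-recorded library. It held 17.6% of the component in brain and 32.2% in the liver-recorded library (28.7 to 35.7), while the exact interval for 0 of 295 reads reaches 1.24% in the ovary-recorded library. With the 0 reads there set at a floor of 3, its ratio of file-read shares, brain over the ovary-recorded library, came to 26.8. The lower interval bound of this ratio was 21.7. TRINITY_DN79_c0_g1_i12 (4299 bases, the longest member) had 259, 68.6 and 58.2 reads, and TRINITY_DN79_c0_g1_i9 (3522 bases) 347, 73.3 and 102. These last 2, with TRINITY_DN79_c0_g1_i2 and TRINITY_DN79_c0_g1_i22, were each higher in brain than in the liver-recorded library, by 2.21-fold to 4.27-fold. Transcripts of 1 component share sequence, and the fractional counts show that reads were divided among them by estimation, so the sum of the component is the safer value. The sum passed the 2-fold limit in no pair of libraries.

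**Figure D3:**
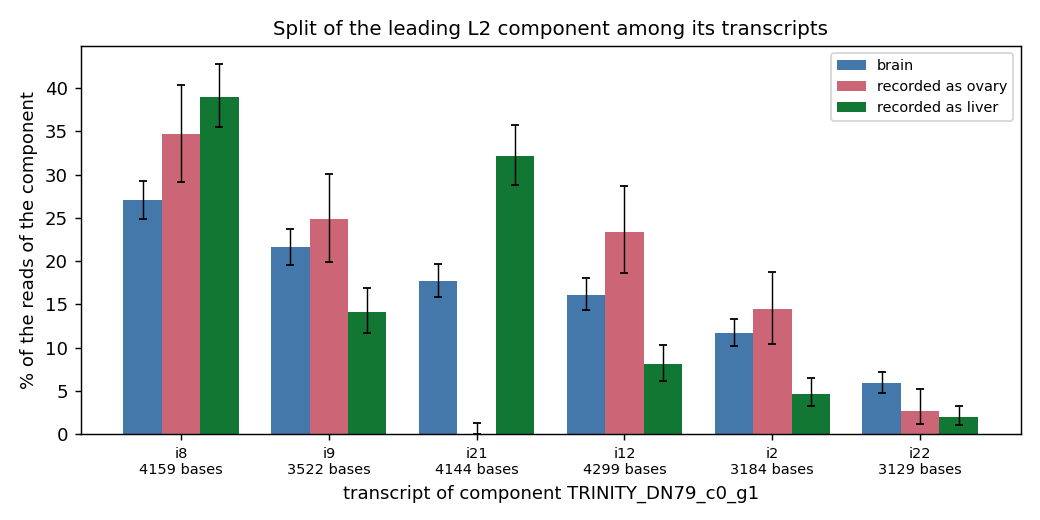
Share of each of the 6 transcripts in the reads of component TRINITY_DN79_c0_g1, by quantification file; bars start at 0 and the lines are exact 95% intervals of counting error. The transcript i21 is at 0 in the ovary-recorded library and at 32.2% in the liver-recorded library.

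TRINITY_DN5791_c0_g2_i1 (3074 bases), the only transcript of its component, was the leading single member in the ovary-recorded library. It had 397 reads in brain, 107 in that library and 102 in the liver-recorded library, or 2.42%, 2.29% and 0.963% of the file reads. Brain and the ovary-recorded library did not differ beyond counting error, with a ratio of 1.06 (0.848 to 1.31). Both were above the liver-recorded library, by 2.51-fold (2.03 to 3.17) and 2.38-fold (1.81 to 3.18).

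The component TRINITY_DN23215_c6_g2 had nearly all of its reads in the ovary-recorded library. TRINITY_DN23215_c6_g2_i2 (1162 bases) had 94.8 reads there, 7.05 in brain and 0 in the liver-recorded library. TRINITY_DN23215_c6_g2_i5 (834 bases) had 37.2, 3.05 and 1 read. Their sum of 132 reads was 2.84% of that file (2.38 to 3.36) and 16.4% of its L2 reads, against 0.0615% (0.0292 to 0.112) of the brain file. The component was 46.1-fold lower in brain than in the ovary-recorded library (24.5 to 99.4). Of the 23 L2 components with 20 or more reads in these files, it alone was at least 2-fold lower in brain. This was 4.35%, beside 7.07% of all components. Its members were named partly for the size of this difference. Its reads outside the ovary-recorded library would not have reached the minimum. The count of lower members depended on the minimum: by transcript, 2 members were lower at 20 reads, 8 at 10 reads and 10 with no minimum. The counts at other minima were taken for L2 only, without the same count over all transcripts. Without TRINITY_DN23215_c6_g2, the log2 ratio of L2 for brain over the ovary-recorded library rose from 0.33 to 0.55. The direction of that change was fixed in advance, as the component was known to be low in brain.

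Some shorter members had a higher share of the file reads in brain than in both other libraries. They were named for the size of that difference and had most of their reads in brain, the deepest file. Their reads in the other files alone would not have reached the minimum. Between brain and the ovary-recorded library, 31.0% of L2 transcripts with enough reads were higher in brain, against 32.5% of all. For brain and the liver-recorded library these shares were 60% and 51.1%. TRINITY_DN12077_c0_g1_i1 (206 bases) had 74 reads in brain, 3 in the ovary-recorded library and 6 in the liver-recorded library, a 6.99-fold (2.302 to 34.7) and an 8.002-fold (3.51 to 22.5) difference. It was also the L2 member with the highest TPM in brain, 25955 against 3655 and 5331. TRINITY_DN43001_c0_g2_i2 (641 bases) had 58, 5 and 0 reads. Its component, with 4 reads from its other transcript in the liver-recorded library, was 3.29-fold (1.33 to 10.5) and 9.41-fold (3.48 to 35.7) higher in brain. TRINITY_DN36021_c6_g2_i2 (668 bases) had 42.7, 1 and 0 reads, and TRINITY_DN39192_c1_g1_i1 (613 bases) 34, 1 and 1. For the latter brain was 9.64-fold above the ovary-recorded library (1.62 to 392) and 22.1-fold above the liver-recorded library (3.701 to 897), wide intervals that follow from single reads. TRINITY_DN40540_c0_g1_i1 (271 bases) had 28 reads in brain and 0 in both others, or 2.65-fold and 6.06-fold higher in brain when the floor is used. The lower interval bounds of these ratios were 2.01 and 4.61.

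The 3 transcripts of TRINITY_DN29447_c1_g1 had most of their reads in brain. They summed to 54.0 reads in brain and to 1 read in each of the other libraries, and the component was 15.3-fold (2.63 to 616) and 35.04-fold (6.03 to 1409) higher in brain. Of its members, TRINITY_DN29447_c1_g1_i3 (530 bases) had 27.0 reads in brain and 0 in both others. By contrast TRINITY_DN22661_c0_g1, with 4 transcripts of 265 to 279 bases, was at 39.5, 13.6 and 14.0 reads. It was 2.23-fold higher in the ovary-recorded library than in the liver-recorded library (1.01 to 5.18), and its intervals against brain included 1 in both comparisons. TRINITY_DN30830_c2_g1_i1 (692 bases) was shared by brain and the ovary-recorded library, with 62.5 and 19.9 reads, and low in the liver-recorded library with 5.26. It was 7.72-fold (3.32 to 26) and 8.66-fold (3.33 to 31.2) above the latter library.

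**Figure D4:**
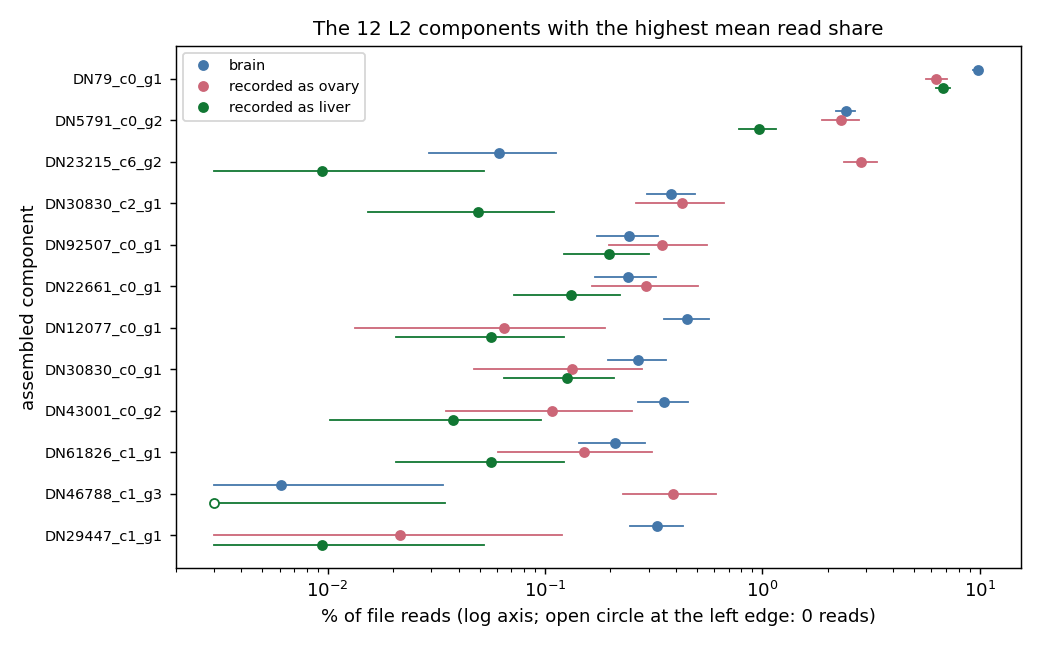
Share of the file reads, on a log axis, of the 12 L2 components with the highest mean share over the 3 quantification files; lines are exact 95% intervals of counting error and an open circle marks 0 reads. TRINITY_DN79_c0_g1 leads at 6.33% to 9.80%, and TRINITY_DN23215_c6_g2 is at 2.84% in the ovary-recorded library against 0.0615% in brain.

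Transcript by transcript, the number of L2 members that differed was read against the same count over all 480 transcripts. A transcript counted as higher or lower when its share differed at least 2-fold, its reads in both libraries came to 20 or more, and the interval excluded 1. For the ratio, 0 reads were set at 3. Transcripts of 1 component were counted singly here, although they share sequence. Between brain and the ovary-recorded library, 29 members had enough reads. Of these 9 were higher in brain, or 31.0%, where 32.5% of all transcripts with enough reads were. The 2 lower ones, both of TRINITY_DN23215_c6_g2, were 6.90% against 10.8%. The median log2 ratio was 0.92 over the L2 members and 0.92 over all transcripts with enough reads. All transcripts include L2 itself. Outside L2, 33.0% were higher and 12.1% lower in brain, with a median log2 ratio of 0.92. In this comparison the single L2 members were thus close to the rest of the files in the share higher and in the median.

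Between brain and the liver-recorded library, 18 of 30 members with enough reads were higher in brain, or 60.0%, where 51.1% of all transcripts were. None of the 30 was lower, where 16.3% of all transcripts were (22 of 135). Outside L2, 48.6% were higher and 21.0% lower in brain. The L2 counts depended on the minimum of reads, which brain, the deepest file, helps to pass. At 10 reads 40 members were higher and 1 lower, and with no minimum 40 and 5. CR1 had 38 of 70 higher and 11 lower in brain. The median log2 ratio was 1.43 over the L2 members, 1.73 over CR1 and 1.31 over all. With the L2 reads as total, 10 members were higher and 2 lower, and with TMM factors 11 were higher and 1 lower. These alternative counts, like those at other minima, were taken for L2 only. They therefore show no difference between L2 and the rest of the files.

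Between the ovary-recorded and liver-recorded libraries, 11 members had enough reads. In the ovary-recorded library 6 of them were higher, or 54.5%, where 34.4% of all transcripts were, and 1 was lower, or 9.09%, where likewise 34.4% were. The lower one was TRINITY_DN79_c0_g1_i21. All 6 transcripts of its component were among the 11, with i2 and i12 among the higher ones. They share sequence and are not separate observations, and their sum gave a ratio of 0.934 (0.814 to 1.07). Both members of TRINITY_DN23215_c6_g2 were also among the higher ones. The median log2 ratio was 1.25 over L2 and 0.35 over all. Exchanging the names of these libraries would turn these directions.

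**Figure D5:**
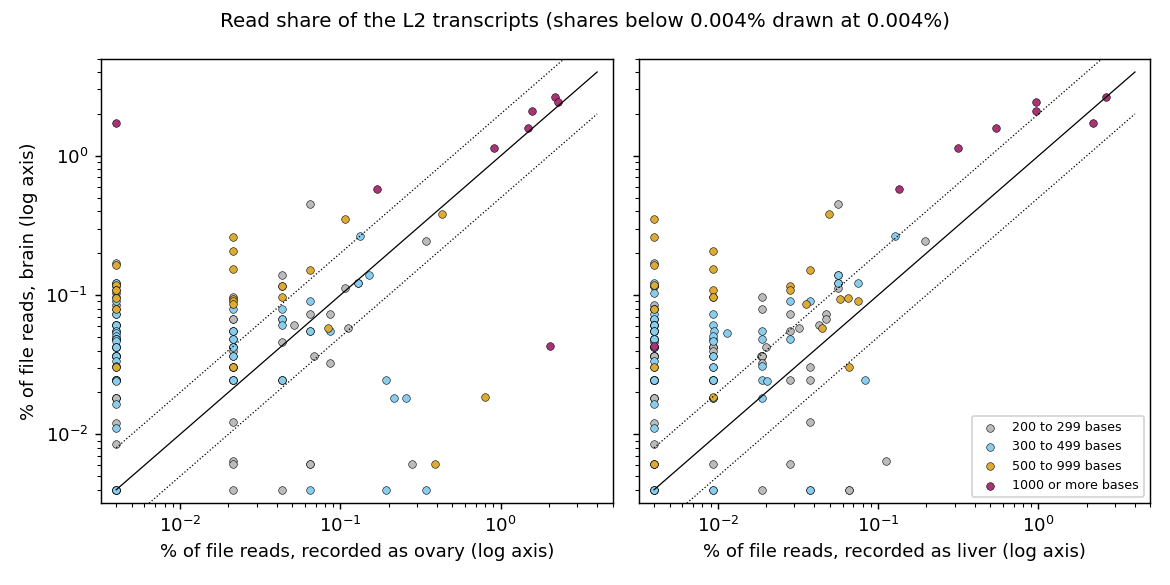
Share of the file reads of each L2 transcript in brain against the ovary-recorded library (left) and the liver-recorded library (right), on log axes; colours are length classes, the solid line marks equal shares, the dotted lines 2-fold, and shares below 0.004% are drawn at 0.004%. Of the 8 members of 1000 bases or more, 5 lie between the dotted lines on the left and 2 on the right, the vertical rows are transcripts with few or no reads in the other library, and the 2 points farthest to the right below the lines of the left panel are those of TRINITY_DN23215_c6_g2.

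With transcripts summed to components, the 159 members became 140, of which 129 held a single member. Between brain and the ovary-recorded library 23 L2 components had enough reads, and 7 were higher and 1 lower in brain, or 30.4% and 4.35%, beside 36.4% and 7.07% of all components. Between brain and the liver-recorded library 15 of 25 were higher and 0 lower, or 60.0%, beside 55.9% and 12.6%. Between the ovary-recorded and liver-recorded libraries 4 of 6 were higher in the former and 0 lower, or 66.7%, beside 37.8% and 31.1%. The component TRINITY_DN79_c0_g1 passed in no pair. The minimum of reads limits the counts of components in the same way.

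The L2 signal was concentrated to different degrees. The 5 members with most reads held 48.1% of L2 reads in brain (46.5 to 49.8), 55.4% in the ovary-recorded library (51.96 to 58.9) and 70.03% in the liver-recorded library (67.3 to 72.7). The effective number of members, the exponential of the Shannon entropy of their read shares, was 42.5, 25 and 16.9. These values were not brought to equal depth, and L2 had 3577, 804 and 1109 reads in the same order. CR1 gave close values, with 44.2%, 52.7% and 70.7% in its top 5 and effective numbers of 45.7, 27.0 and 15.0. By TPM the top 5 L2 members held 22.8%, 29.0% and 27.5%. The effective numbers by TPM were 92.8, 51.0 and 51.8, so the ovary-recorded and liver-recorded libraries were then alike. The leading member by TPM was TRINITY_DN12077_c0_g1_i1 in brain. In both other libraries it was TRINITY_DN92507_c0_g1_i4 (208 bases), whose 40, 16 and 21 reads corresponded to 13561, 18127 and 19114 TPM.

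In the annotation that accompanies the files, L2 was named for 2673 of 19207 transcripts (13.9%), in 2389 components. None of these components carried a second element name. At the coarser level of the read cluster, the DN number of the name, 19 of 1938 clusters with an L2 name also held another name, 12 of them CR1. Of the 117 clusters of the members, 2 held another name and 1 of these CR1. The members were 5.95% of the L2 names, and the quantification files held 2.49% of all names and 3.44% of the CR1 names. Their reads came to 10.8% of the L2 reads of the subfamily table in the Brain column. For the ovary, by record and by column, the figure was 8.13%, and for the liver 15.4%. Both figures depend on this pairing of files whose names are crossed, and they would change if the files were exchanged.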

How the data were processed

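Per the labels' protocols, tissues were stored in RNAlater and libraries prepared with an unstranded TruSeq kit. The submitters' processing notes name Bowtie2 2.3.4.1, with no role. The sources used here do not name the assembler, the annotation method or the quantification tool; transcript names have the form that Trinity writes. The authors deposited estimated counts per subfamily and, per transcript, estimated counts and TPM, which sums to 1000000 per file. They also deposited log2 CPM of unstated scaling for 27 subfamilies, used here as an alternative.

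Members were taken by their annotated name. Counts were rounded to whole reads for intervals: Clopper-Pearson for shares, exact conditional binomial for ratios (SciPy 1.17.1, Python 3.11.15). For folds, 0 reads in a library were replaced by 3. With 1 library per tissue no test and no p-value was possible. Without molecular identifiers, reads are not independent molecules and intervals may be too narrow, and division of reads among similar transcripts is not covered. Scaling factors came from edgeR 4.0.16 (TMM) and DESeq2 1.42.0 (median of ratios). Named transcripts are the 5 with most reads per library, up to 5 per side and pair by the interval bound nearest to 1, the 3 longest, and the 3 components with most transcripts; others were named after their values were seen. Members, lists and rules were chosen with earlier results of these data known.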

Additional observations from a re-analysis of the deposited data

How the results depend on the processing

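No paired analysis was possible because each tissue has 1 library. Leaving out a library within a tissue was therefore not run. Depth limits the single members: 123 of 159 had fewer than 20 reads in all. Of 120 alternative values, 47 stayed within the interval of the reported share or ratio, or within a set fold of the reported count. Another 65 moved and 8 reversed a direction. Some outcomes were fixed in advance. Exchanging the ovary and liver files must reverse the ratio between them, and the shallowest file cannot change when rarefied to its own depth. Leaving out a component moves each ratio in a direction set by that component's own values, which were already known. The causes were not tested. For values of the quantification files below, ovary and liver mean the ovary-recorded and the liver-recorded library.

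In the subfamily table the log2 share ratio of L2 for brain over ovary (-0.51) reversed to 0.87 without SINE3, 0.52 with TMM factors, 0.37 with median-of-ratios factors and 0.67 in the deposited log2 CPM. For brain over liver (0.54) these gave 1.41, 0.087, 0.13 and 0.26. For ovary over liver (1.05) they gave 0.54, then reversed to -0.43, -0.25 and -0.42.

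The top transcripts of the libraries were of ERV3 and ERV2, not L2, and where left out they were left out of every file. ERV3 took 27.1% of the file reads in brain and 38.9% in the liver-recorded library, and ERV2 26.1% in the ovary-recorded library. In the quantification files the log2 ratio for brain over ovary (0.33) was 0.22 without these top transcripts, 0.15 with median-of-ratios factors and 0.56 by TPM. For brain over liver (1.07) it was 0.87 of LINE reads, 0.30 with TMM factors, 0.16 with median-of-ratios factors and 0.75 by TPM. For ovary over liver (0.73) it was 0.58, 0.046, 0.0035 and 0.19 in the same order. Further alternatives were added after the data were seen. Exchanging the ovary and liver files gave 1.07, 0.33 and, reversed, -0.73. Leaving out TRINITY_DN79_c0_g1 gave 0.19, 1.77 and 1.58, and leaving out TRINITY_DN23215_c6_g2 gave 0.55 for brain over ovary and 0.51 for ovary over liver.

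Counts of members moved as follows. The alternative counts were taken for L2 only, without the same count over all transcripts. Brain over ovary had 9 higher, or 4 at a minimum of 50 reads, and 2 lower, or 8 at a minimum of 10, 10 with no minimum, 1 at 50 and 1 by component. Brain over liver had 18 higher, or 40 at a minimum of 10 or with none, 9 at 50, 10 of L2 reads and 11 with TMM factors. Its 0 lower became 1 at a minimum of 10, 5 with none, 2 of L2 reads and 1 with TMM factors. Ovary over liver had 6 higher, or 11 at a minimum of 10, 13 with none, and 3 at a fold limit of 3, of L2 reads or with TMM factors; its 1 lower became 0 by component.

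Without the same top transcripts, L2 took 28.8% in brain, 24.7% in the ovary-recorded and 14.1% in the liver-recorded library. By TPM it took 24.5% in brain and 14.5% in the liver-recorded library. With at least 5 reads, 24 members were found in ovary and 27 in liver. The top 5 held 22.8%, 29.0% and 27.5% by TPM and 61.5%, 71.03% and 78.7% by component. Members of 1000 bases or more held 5.17%, 9.25% and 8.48% by TPM, and 49.9% in ovary by usable length. L2 among L2 and CR1 was 18.8%, 13.4% and 5.54% in the table, and 28.8% and 24.0% by TPM in brain and ovary. Brain kept the highest value of that proportion in each.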

Other observations

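Some L2 members with few reads were found almost only in the ovary-recorded library. They were picked after their values were seen. TRINITY_DN46788_c1_g3_i1 (644 bases) had 18 reads there, 1 in brain and 0 in the liver-recorded library. TRINITY_DN59919_c0_g3_i1 (409 bases) had 16 reads there and 0 in both others. TRINITY_DN140775_c0_g1_i1 (233 bases) had 13, with 1 in brain and 1 in the liver-recorded library, and its 11880 TPM ranked next after TRINITY_DN92507_c0_g1_i4 in that file. TRINITY_DN47981_c4_g1_i1 (364 bases) had 12, 3 in brain and 2 in the liver-recorded library. These transcripts belong to components other than TRINITY_DN23215_c6_g2, and all had fewer than the 20 reads asked for in the counts.

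Others, picked in the same way, had most of their few reads in the liver-recorded library. TRINITY_DN169549_c0_g3_i1 (286 bases) had 11.9 reads there, 1.05 in brain and 1 in the ovary-recorded library. TRINITY_DN60021_c0_g1_i1 (223 bases) and TRINITY_DN274667_c0_g1_i1 (243 bases) had 7 reads each there and 0 in both others.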
